A study of Gallus gallus with 24 samples.

Results

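The first 6 h after a goggle blurred the image in 1 eye of young chicks were examined by setting 6 goggled eyes against the 6 open fellow eyes of the same animals. These 12 arrays, of 24 in the study, were chosen by their titles, which name the eye and the 6 h group. The chicks were white Leghorns kept on a cycle with 12 h of light, and were goggled at 1 week of age under inhaled ether, at light onset. The goggled eye wore a translucent white plastic goggle glued to the feathers around the orbit, and the side alternated between left and right. The open eye had no goggle and served as the control, so both groups share strain, age, anaesthesia, feeding and light cycle. The light that reached the retina passed through the goggle in 1 group only. The controls have had a goggle on the other side of the head. Of 8 chicks goggled for 6 h, both eyes of 6 were used, 1 array per eye, and 12 further arrays came from 6 other chicks after 3 d of goggle wear. No animals were pooled, and each eye was an individual preparation of retina and retinal pigment epithelium (RPE) dissected together.

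A diffuser leaves light in the eye but removes sharp edges, and an eye so deprived of form vision grows too long, which is form-deprivation myopia. The signal that steers growth is made within the eye: amacrine cells, the interneurons of the inner retina, respond to image contrast with dopamine and peptides such as glucagon and VIP. The RPE and choroid then lie between the retina and the sclera, the coat that sets the eye's length. Hours after goggling the eye has hardly grown.

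Signals were linear intensities of Affymetrix probe sets, and differences are given as log2(signal + 16) of the goggled minus the open eye. Probe sets for reporter genes foreign to the chicken gave the background: the 95th percentile of their single signals over all arrays was 22.8. Among marker genes of 6 retinal cell classes and the pigment epithelium, 102 of 106 had a mean above it in these eyes. That count does not single out the labelled tissue, since only 14.2% of all probe sets tested had their mean below this level. Markers of lens and of scleral cartilage were above it in 8 of 8 cases each. Choroid, sclera and vessel markers were above it in 27 of 29, and blood cell markers in 4 of 7. The median signal of an array was 39.9 ± 3.03 in goggled and 40.5 ± 3.43 in open eyes (SD, n = 6 each), and the actin 3'/5' ratio, a sign of RNA integrity, was 3.66 ± 0.647 in goggled and 3.46 ± 0.878 in open eyes. The eyes held varied amounts of other tissue: choroid markers, as a mean log2 level, spanned 5.99 to 6.77 in goggled and 5.95 to 7.15 in open eyes, and striated muscle markers stood apart in goggled replicates 5 and 6, at 7.04 and 8.02. Values that touch a result are given beside it.

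At 6 h, not 1 of the probe sets tested reached an adjusted p under 0.05 (limma with the chick as a block, Benjamini-Hochberg over 26869 probe sets, 0% called), and the smallest adjusted p was 0.238, for VIP. At an unadjusted p under 0.05 stood 663 probe sets that were lower (2.47%) and 570 that were higher (2.12%) in goggled eyes, 4.59% in all. With each array centred on its median, that split was 429 lower and 823 higher. Without replicate 1, 1020 probe sets were lower at that p and 716 higher. The median difference over all probe sets was -0.01. The values that follow describe these 6 chicks without a call behind them. In whole tissue, fewer cells of a type and less RNA per cell cannot be told apart.

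The spread of the between-eye differences was similar in each animal, but the differences themselves had little in common between animals. The SD of the between-eye differences over all probe sets was 0.29 to 0.369 per chick. Between 139 and 224 probe sets were at least 2-fold lower in the goggled eye of a chick and 84 to 278 at least 2-fold higher. Across the 15 pairs of chicks, the correlation of these differences over probe sets lay between -0.13 and 0.09, given as a description since all share an array design and intensity scale. The mean difference reached 0.5 in either direction for 101 probe sets and 1 for 5. In 6 of 6 chicks the goggled eye was lower for 458 probe sets (1.70%) and higher for 403 (1.50%). The 2 groups of eyes did not overlap for 19 probe sets that were lower (0.0707%) and 13 that were higher (0.0484%).

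Among the peptide transmitters, VIP, UTS2B and, on 1 of its 2 probe sets, GCG had lower signals in the goggled eye of every chick. VIP encodes vasoactive intestinal peptide, which is made in a class of amacrine cells. Its signal was 216 to 335 in goggled eyes, with a median of 293, against 285 to 693 with a median of 445 in open eyes. The lowest open eye lay within the goggled range and belonged to the chick with the lowest goggled eye, replicate 6. The mean difference was -0.63 (SE 0.09, adjusted p = 0.238), and the chicks ranged between -1.10 and -0.38. UTS2B encodes a peptide related to urotensin II. Goggled eyes gave 61.0 to 89.6 (median 77.2) and open eyes 98.7 to 146 (median 114), so that the groups did not overlap. The difference was -0.52 (SE 0.10, adjusted p = 0.671). GCG encodes proglucagon, the precursor of glucagon, the peptide of amacrine cells tied in chicks to the sign of defocus. It measured 293 to 443.5 (median 320.5) in goggled and 323 to 676 (median 414) in open eyes. The ranges overlapped, and each chick's goggled eye was the lower of its pair. The difference of -0.32 (SE 0.10) had an adjusted p of 0.997. It was -0.96 in replicate 3 and -0.31 to -0.13 in the others. A second GCG probe set gave -0.11 and was lower in 3 of 6 chicks.

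NTS, which encodes neurotensin, went the other way: its signal was 1215 to 1829.8 (median 1533) in goggled and 851 to 1618 (median 1270.2) in open eyes. The goggled eye was higher in 6 of 6 chicks, by 0.30 on average (SE 0.09, adjusted p = 0.997). Of 18 neuropeptide genes tested, 13 were lower and 5 higher, with a median difference of -0.09 against -0.01 over 11130 genes, of which 52.0% were lower and 48.0% higher. The list's median was below 0 in each of the 6 chicks, between -0.29 and -0.05. Its member CNP3 gave -0.60 (SE 0.36, adjusted p = 0.997) and was lower in 4 of 6 chicks, on mean signals of 26 in goggled and 40.5 in open eyes. In 6 of 6 chicks the goggled eye was lower for 3 of these 18, against 1.77% of all genes, and higher for 1, against 1.68%. The list was chosen with earlier results of these data known, so these counts describe it and test nothing. Without chicks 5 and 6, whose goggled eyes stood out in muscle markers, 13 neuropeptide genes were again lower and 5 higher, and the median was -0.11. Their receptors had 14 lower and 6 higher of 20 and a median of -0.03. The receptors had 9 lower and 11 higher without chicks 5 and 6. NPY2R, a receptor of neuropeptide Y, was lower in 6 of 6 by a difference of -0.25 (SE 0.17, adjusted p = 0.997). SSTR5, a somatostatin receptor, was higher in 6 of 6 by 0.44 (SE 0.22, adjusted p = 0.997). Its signals were 17.4 to 40.2 in goggled and 4.5 to 27.0 in open eyes, with most open eyes and some goggled eyes below background.

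TH, tyrosine hydroxylase, makes the precursor of dopamine in a sparse set of amacrine cells. Goggled eyes gave 31.6 to 45.6 (median 41.6) and open eyes 40.3 to 63.8 (median 52.5). The goggled eye was lower in 5 of 6 chicks and the ranges overlapped, with a difference of -0.28 (SE 0.12, adjusted p = 0.997). Among 14 genes of dopamine synthesis, transport and reception, 5 were lower and 9 higher, with a median of 0.04. CHAT, choline acetyltransferase of the starburst amacrine cells, was lower in 6 of 6 chicks by a mean difference of -0.20 (SE 0.09), and on a second probe set in 4 of 6 by a difference of -0.09. The acetylcholine list held 13 lower and 4 higher genes of 17 (median -0.04), which became 8 and 9 without chicks 5 and 6. GABRR1, a rho subunit of the ionotropic GABA receptors found on bipolar cells, measured 130.4 to 174 (median 155) in goggled and 169 to 289 (median 183) in open eyes. Only the highest goggled eye reached into the open range, and 6 of 6 chicks were lower, by a difference of -0.35 (SE 0.10, adjusted p = 0.997). Across 27 GABA and glycine genes, 15 were lower and 12 higher. The amacrine cell markers, which include VIP, GCG, TH and CHAT, had no common direction. Of 21 tested, 10 were lower and 11 higher, with a median of 0.02.

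The largest mean difference among genes named here on signals above background in both groups was that of BMP2, a secreted growth factor of the bone morphogenetic protein family that the chick RPE is known to make. Its goggled eyes ranged between 83.9 and 189.6 (median 108) and its open eyes between 227 and 443 (median 289). The groups did not overlap, and the lowest open eye was above the highest goggled one. The difference was -1.22 (SE 0.25, adjusted p = 0.671), and between -1.65 and -0.79 in single chicks. A second BMP2 probe set, with means of 15.9 in goggled and 20.9 in open eyes, lay below background and gave -0.19. CCN2, also called connective tissue growth factor, is a matrix-associated protein and a known target of TGF-beta and of YAP. It measured 171.5 to 485 (median 245) in goggled and 345 to 826 (median 510.2) in open eyes, overlapping through replicate 5, which had the highest value in both groups. Its difference was -0.96 (SE 0.22, adjusted p = 0.825), with every chick between -1.37 and -0.75.

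Both genes can be read beside the tissues that came with the retina. The median difference of 21 pigment epithelium markers was -0.20, 0.04, -0.15, 0.15, -0.14 and -0.28 in chicks 1 to 6. That of 29 choroid, sclera and vessel markers was -0.29, -0.11, 0.45, 0.03, -0.13 and 0.30. In the same chicks, BMP2 differed by -0.88, -0.79, -1.57, -1.28, -1.16 and -1.65, and CCN2 by -1.31, -0.79, -0.79, -0.78, -0.75 and -1.37. Both genes were lower in each chick, and each marker list was lower in some chicks and higher in others. The part of these tissues in the direction or size of the 2 genes' differences was not tested. Without chicks 5 and 6, the difference was -1.13 for BMP2 and -0.92 for CCN2.

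Other members of these families differed less. Of 28 BMP ligands, antagonists and targets, 19 were lower and 9 higher, with a median of -0.04. BMP7, another ligand, was lower in 5 of 6 chicks with a difference of -0.45 (SE 0.19), which was -0.22 without chicks 5 and 6 and -0.19 on a second probe set. ID3, a transcriptional target of BMP signalling, gave -0.50 (SE 0.19), but 5 goggled eyes were between 1.9 and 9.4, below background, and replicate 5 was at 71.3. NOG, which encodes the antagonist noggin, gave 0.09 and the receptor gene ACVR2A 0.20, higher in 5 of 6 chicks, or -0.21 on a second probe set near background. Of 17 TGF-beta and CCN genes, 5 were lower and 12 higher, with a median of 0.05. SMAD3, which carries the TGF-beta signal into the nucleus, was higher in 6 of 6 chicks by 0.27 (SE 0.09), while TGFB2, a ligand, gave -0.10. In the WNT list (7 lower, 10 higher of 17), WNT9A was higher in 5 of 6 chicks by 0.57 (SE 0.21), or 0.87 without chicks 5 and 6, and replicate 5 was the exception at -0.40. WNT11 was lower in 6 of 6 by a difference of -0.34, on signals close to background, and a second probe set below background gave -0.15.

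BDNF, the neurotrophin that acts through the receptor TrkB, measured 45.3 to 57.0 (median 50.8) in goggled and 54.3 to 82.8 (median 68.6) in open eyes. The overlap came from the open eye of replicate 6 alone. All 6 goggled eyes were the lower of their pair, by a difference of -0.35 on average (SE 0.08, adjusted p = 0.825). SHC4 encodes an adaptor of receptor tyrosine kinases that is expressed in neurons. Its goggled eyes were close together, 129 to 152 (median 139), and its open eyes spread over 146 to 231 (median 188). Its difference was -0.38 (SE 0.09, adjusted p = 0.997), lower in 6 of 6 chicks. A second SHC4 probe set gave 0.00, and another gave -0.43, lower in 6 of 6, with means of 11.3 in goggled and 20.9 in open eyes, below background. Of the 10 neurotrophin and receptor genes tested, 5 were lower and 5 higher, with a median of -0.02 that was 0.0016 after median centring.

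**Figure D1:**
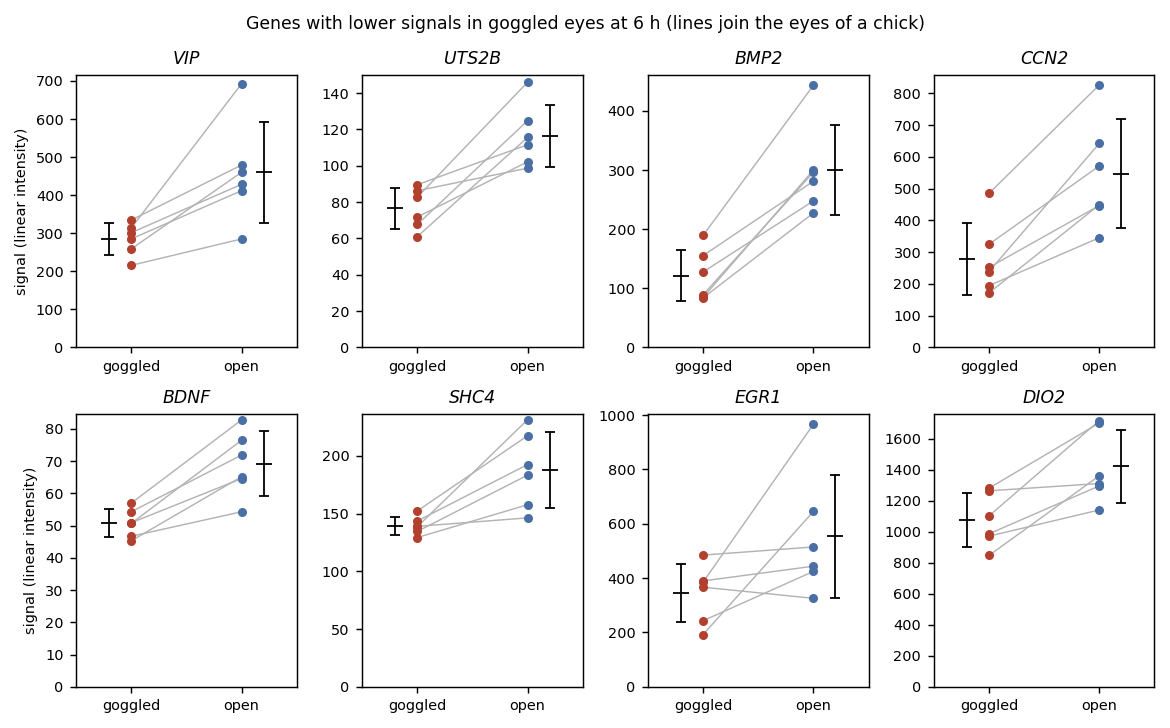
Signal (linear intensity, from 0) of 8 genes in goggled (left) and open eyes (right) at 6 h, with a line for each of 6 chicks and bars for mean and SD. Every line runs upward to the open eye except 1 for EGR1; UTS2B and BMP2 have goggled and open ranges that do not overlap.

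Immediate early genes are transcription factors and regulators that neurons and other cells switch on within minutes of a stimulus. EGR1, known as ZENK in birds and used to mark glucagon amacrine cells that respond to defocus, measured 192 to 485 (median 376) in goggled and 326 to 966 (median 479) in open eyes. It was lower in 5 of 6 chicks, by a difference of -0.64 (SE 0.21, adjusted p = 0.997), and that value was -0.43 without replicate 2. Chicks 1 to 6 gave -1.29, -1.67, -0.08, -0.18, -0.77 and 0.16. A second EGR1 probe set, at a median of 76.2 in goggled and 144 in open eyes, gave -0.77 and was also lower in 5 of 6 chicks. The exceptions were replicate 6 on the first and replicate 3 on the second. MAFF, a small Maf transcription factor, was lower in 6 of 6 chicks, with a difference of -0.30 (SE 0.10). FOS was lower in 4 of 6 by a difference of -0.15, with most of its signals a little above background. JUN was higher in 5 of 6 by 0.21 and the kinase gene SIK1 in 6 of 6 by 0.26. NR4A3 lay below background in both groups, and its difference of 0.05 had no stable sign. NR4A1 has no probe set. Of 19 immediate early genes, 7 were lower and 12 higher, with a median of 0.02.

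ERK signalling induces some genes that feed back on it. The genes listed under this heading, with LBH counted among them, were as mixed, with 7 lower and 6 higher of 13. Their median was -0.02, which was 0.0021 after median centring and 0.10 without replicate 6. DUSP6, a phosphatase of ERK, was lower in 6 of 6 chicks by a small difference of -0.15 (SE 0.07). DUSP4, a related phosphatase, gave -0.26 on one probe set and -0.37 on another, lower in 4 and in 5 of 6. ETV4, an ETS transcription factor, gave -0.20. LBH, a transcriptional cofactor, stood on the other side: 4094 to 4959 (median 4499) in goggled and 3167 to 3964.5 (median 3615) in open eyes. The groups did not overlap, and every goggled eye was above every open one. Its difference of 0.32 (SE 0.07, adjusted p = 0.825) lay between 0.17 and 0.39 in single chicks.

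The remaining genes with the smallest p among those lower in 6 of 6 chicks were AFAP1L1, MAGI2, BRWD1, CYB561D2, MAP7D3 and LONRF1. AFAP1L1, an adaptor at actin filaments, measured 14.4 to 45.4 (median 25.7) in goggled and 26.7 to 62.3 (median 47.4) in open eyes. The ranges overlapped widely, some goggled eyes were below background, and the difference was -0.51 (SE 0.09, adjusted p = 0.671). MAGI2, a scaffold of synapses and junctions, gave -0.36, and CYB561D2, of the cytochrome b561 family, -0.34. BRWD1, a bromodomain protein, was at 69.6 to 90.1 (median 82.6) in goggled and 105.5 to 127 (median 110.4) in open eyes, with no overlap and a difference of -0.38. MAP7D3, a microtubule-associated protein, gave -0.34 and LONRF1, a ring finger protein, -0.29. Their adjusted p lay between 0.671 and 0.997.

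Among genes higher in goggled eyes, PPP3CA had signals of 556 to 1567 (median 922) in goggled and 311 to 996 (median 824) in open eyes. It encodes the catalytic subunit of calcineurin, the phosphatase that calcium and calmodulin activate. The chicks differed far more from each other than their eyes did, and 6 of 6 were higher by 0.12 to 0.81, on average 0.49 (SE 0.12, adjusted p = 0.997). Its other 4 probe sets gave 0.10 to 0.18. FAAP100, a member of the Fanconi anaemia core complex of DNA repair, was at 57.0 to 77.0 (median 67.8) in goggled and 38.0 to 53.5 (median 43.4) in open eyes. The groups did not overlap, and the difference was 0.47 (SE 0.09, adjusted p = 0.671). HYAL4, a member of the hyaluronidase family, also had separate groups, with 59.9 to 84.3 (median 65.2) in goggled and 33.4 to 54.5 (median 46.0) in open eyes and a difference of 0.44 (SE 0.09, adjusted p = 0.671).

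YEATS4, a reader of acetylated histones, was at 139 to 167 (median 155) in goggled and 79.1 to 127 (median 114) in open eyes, again without overlap, and differed by 0.44. INCENPL gave 0.59, with goggled eyes at 26.6 to 36.4 and open eyes at 3.3 to 25.4, most of the open ones below background. WWOX, a WW domain oxidoreductase, gave 0.45, RNF214, a ring finger protein, 0.46 and DRG1, a developmentally regulated GTPase, 0.35. SNX27, a sorting nexin that returns receptors from endosomes to the cell surface, gave 0.34 and PARD3, a protein of cell polarity and tight junctions, 0.30. LRP3, a receptor of the low-density lipoprotein family, gave 0.48 on signals that were under background in some eyes of both groups. For these 8 genes the adjusted p was 0.777 to 0.997, and the goggled eye was higher in 6 of 6 chicks, which the choice of genes required.

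**Figure D2:**
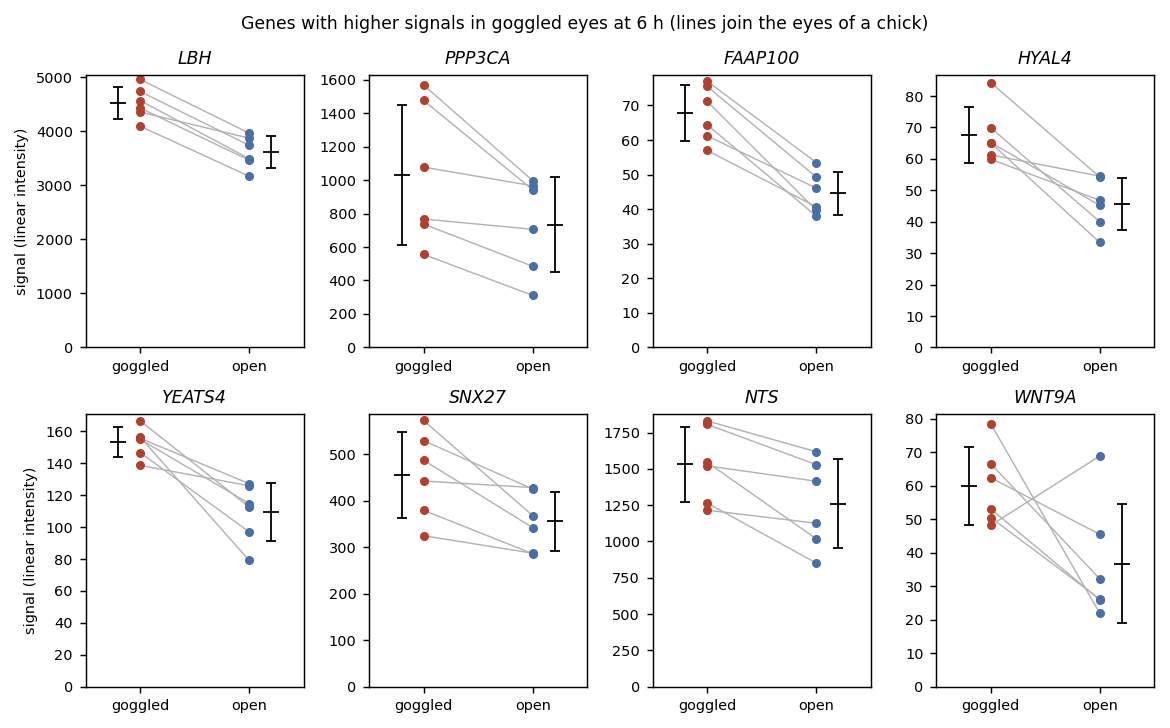
Signal (linear intensity, from 0) of 8 genes in goggled (left) and open eyes (right) at 6 h, with a line for each of 6 chicks and bars for mean and SD. LBH, FAAP100, HYAL4 and YEATS4 have ranges that do not overlap, while PPP3CA varies more between chicks than between eyes.

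These 24 genes, 12 lower and 12 higher, were taken by smallest p among genes with 6 of 6 chicks on 1 side, so their own values support nothing further. Each gene was represented by the probe set with the smallest p among those of its probe sets that met the rule. Its other probe sets had either not met the rule or had a larger p, so they are not independent of the choice. For 10 of the 24, no other probe set was tested. The other 14 had 32 further probe sets, of which 20 differed in the direction of the chosen one. An unadjusted p under 0.05 in that direction was found for LONRF1 and PPP3CA, and for SHC4 on signals below background, all named after their values were seen. Of all probe sets, 2.47% were lower and 2.12% higher at that p. MAGI2, BRWD1, MAP7D3, HYAL4, YEATS4, DRG1, PARD3, INCENPL, RNF214 and SNX27 had other probe sets between -0.17 and 0.16.

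Outside the inner retina, genes of the pigment epithelium and the visual cycle were mostly lower in goggled eyes, by small differences. RDH5, a retinol dehydrogenase of the RPE, measured 81.9 to 129 (median 98.4) in goggled and 86.3 to 185 (median 134) in open eyes. It was lower in 5 of 6 chicks by a difference of -0.34 (SE 0.12), which was -0.18 without chicks 5 and 6. ABCA4, the retinoid transporter of outer segments, gave -0.18, and its other probe sets -0.04 and -0.19. Of 13 visual cycle genes, 10 were lower and 3 higher, with a median of -0.11, and of 21 pigment epithelium markers 17 were lower and 4 higher, with a median of -0.10. Without chicks 5 and 6 these became 8 and 5 with a median of -0.04, and 15 and 6 with a median of -0.03. The pigment gene PMEL gave -0.34 and was lower in 4 of 6 chicks, with replicate 6 at -1.31, and gave -0.10 without chicks 5 and 6. Photoreceptor genes were nearer to the 52.0% of all genes that were lower: 8 of 14 rod genes and 9 of 14 cone genes, or 7 and 8 without chicks 5 and 6. GNAT1, rod transducin, gave -0.27 (SE 0.15).

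Melanopsin of the OPN4-1 gene, a light sensor of cells outside image-forming vision, was lower in 5 of 6 chicks by a difference of -0.27 (SE 0.09), and its second probe set gave -0.13. Of 11 genes for ON bipolar signalling, the pathway that reports light increments, 10 were lower and 1 higher, with a median of only -0.05. Among these were PRKCA and TRPM1, the cation channel of ON bipolar cells, at -0.14 each. The other probe sets gave -0.18 and -0.15 for TRPM1 and -0.05 to 0.01 for PRKCA. The median of that list was -0.23 in chicks 3 and 6 and -0.04 to 0.02 in the other 4. Without chicks 5 and 6, 7 of the ON bipolar genes were lower and 4 higher. The bipolar cell markers, which also include PRKCA and TRPM1, did not share this lean. Of 12 tested, 5 were lower and 7 higher, with a median of 0.07 over all chicks and of 0.34 in chick 3.

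DIO2, the deiodinase that activates thyroid hormone, ranged between 848 and 1282 (median 1045) in goggled and between 1141 and 1718 (median 1337) in open eyes. All 6 chicks were lower in the goggled eye, by a difference of -0.40 (SE 0.10, adjusted p = 0.997), but only by -0.05 in replicate 6. Its second probe set gave -0.29. DIO2 was listed with Mueller glia markers, of which 13 were lower and 7 higher of 20 (median -0.06). GLUL, the glutamine synthetase of those glia, gave -0.20 on one probe set and 0.02 on another. PER2, a light-responsive gene of the circadian clock, was lower in 5 of 6 chicks by a difference of -0.28 (SE 0.09), and its 4 other probe sets gave -0.36 to -0.09. Of 20 clock genes, 12 were lower and 8 higher. PLAU, the urokinase protease, was lower in 6 of 6 by a difference of -0.31, with 0.02 on a second probe set near background. TNR, tenascin-R of the retinal matrix, was higher in 5 of 6 by 0.33, or 0.50 without chicks 5 and 6.

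**Figure D3:**
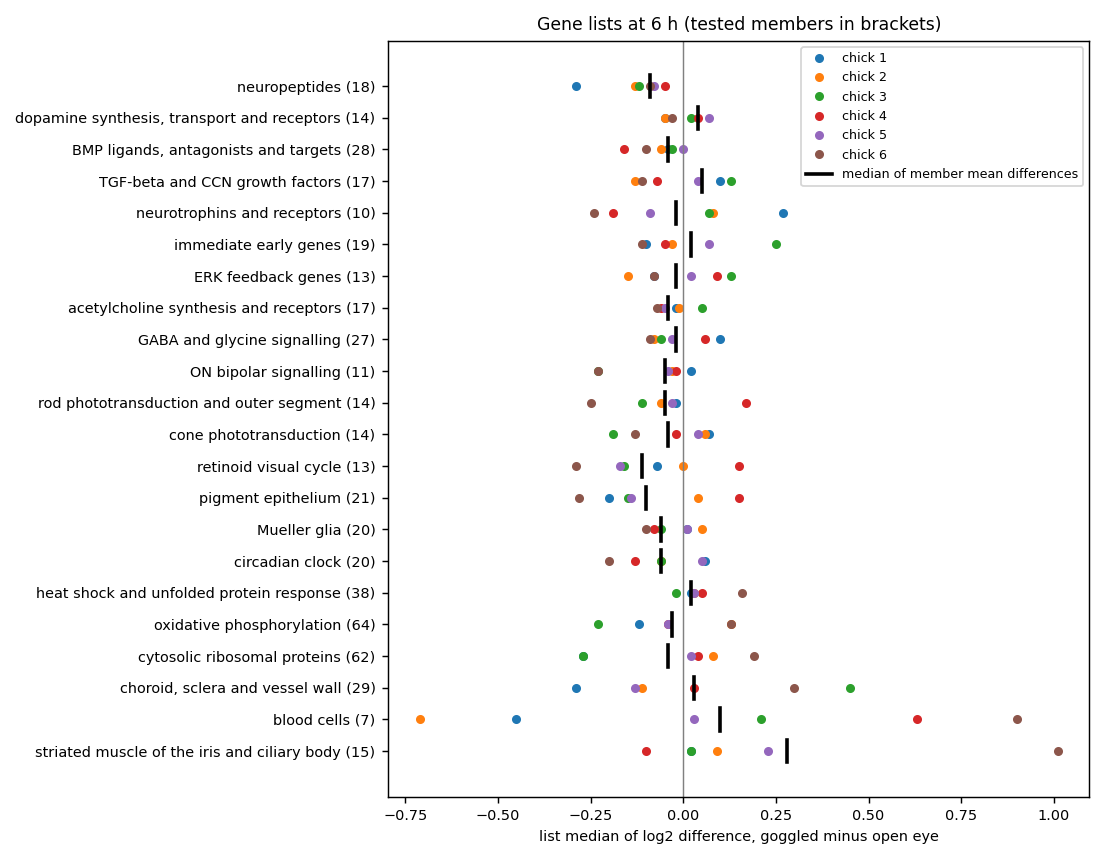
Median log2 difference (goggled minus open eye) of the tested members of 22 gene lists at 6 h, in each of 6 chicks (points), with the median of the members' mean differences as a black bar. Neuropeptides have all chicks below 0, while blood, muscle and choroid lists spread most between chicks among these 22. The lists were chosen with earlier results of these data known.

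Heat shock and unfolded protein genes leaned the other way, with 25 higher and 13 lower of 38 and a median of 0.02. HSPA9, the chaperone of mitochondria, was higher in 6 of 6 chicks by 0.19 (SE 0.07), and in 5 of 6 by 0.33 on its second probe set. BAG3, a cochaperone of HSP70, was higher in 6 of 6 on both of its probe sets, by 0.30 and 0.25. HSPH1, of the HSP110 family, gave 0.18 and a near-background second probe set -0.01. In 6 of 6 chicks, 3 of these 38 genes, a list also chosen with earlier results known, were higher, against 1.68% of all genes. Without chicks 5 and 6, 22 were higher and 16 lower.

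In energy metabolism, PDK4, the kinase that shuts pyruvate dehydrogenase, was higher in 5 of 6 chicks by 0.38 (SE 0.14), and PFKL, phosphofructokinase, by 0.24. The list of glycolysis and low oxygen response had no such lean. Of its 31 genes, 16 were lower and 15 higher, with a median of -0.01 that was below 0 in 5 of 6 chicks. In cholesterol synthesis, SQLE was higher in 5 of 6 by 0.23, or by 0.01 and in 3 of 6 on a second probe set. FDFT1 was higher in 6 of 6 by 0.19. MVD of the same pathway gave -0.32 and was lower in 5 of 6, and gave -0.18 without chicks 5 and 6. Of 27 genes of cholesterol and fatty acid synthesis, 14 were lower and 13 higher, with a median of -0.01. Of 64 oxidative phosphorylation genes, 46 were lower and 18 higher with a median of -0.03, and of 62 ribosomal protein genes 45 and 17 with a median of -0.04. Both lists differed from chick to chick: the ribosomal median was -0.27 in chicks 1 and 3 and 0.19 in chick 6, and 56 of 62 were lower without chicks 5 and 6.

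Of 15 genes of striated muscle, which in birds forms the iris and ciliary muscles next to the retina, 12 were higher and 3 lower, with a median of 0.28. This rested on 2 eyes. The contractile protein gene MYL1 was at 69.0 and 405 in goggled replicates 5 and 6, at 0.6 to 10.5 in the other goggled eyes and at 0.7 to 12.1 in open eyes. Its mean difference of 1.21 (SE 0.52) became 0.09 without those chicks. TNNT3, a troponin of fast muscle, gave 1.0 in all and -0.0079 without them, TNNC2 0.87 and 0.0042, and MYOZ2 0.65 and 0.21. The list then had 7 higher and 8 lower genes and a median of -0.01. In goggled replicates 5 and 6, 0 of the 15 markers were below background, whereas 3 to 5 were in the remaining goggled eyes and 4 or 5 in open eyes. Of 24 such genes on the array, these 15 passed the signal filter, which used the mean over all 24 arrays. That mean includes these 2 eyes, and MYL1 and TNNC2 had open means of only 4.05 and 4.1. The filter thus favoured genes high in these 2 eyes, so the counts of this list are not independent of it.

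Choroid, sclera and vessel markers were lower for 12 and higher for 17 of 29, with a median of 0.03, and KDR, a receptor of endothelial cells, gave 0.20 and on its other 4 probe sets 0.04 to 0.18. Blood cell markers, 3 lower and 4 higher of 7, had chick medians between -0.71 and 0.90. These markers thus had no common direction, and the parts that choroid and blood play in other genes' differences were not tested.

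**Figure D4:**
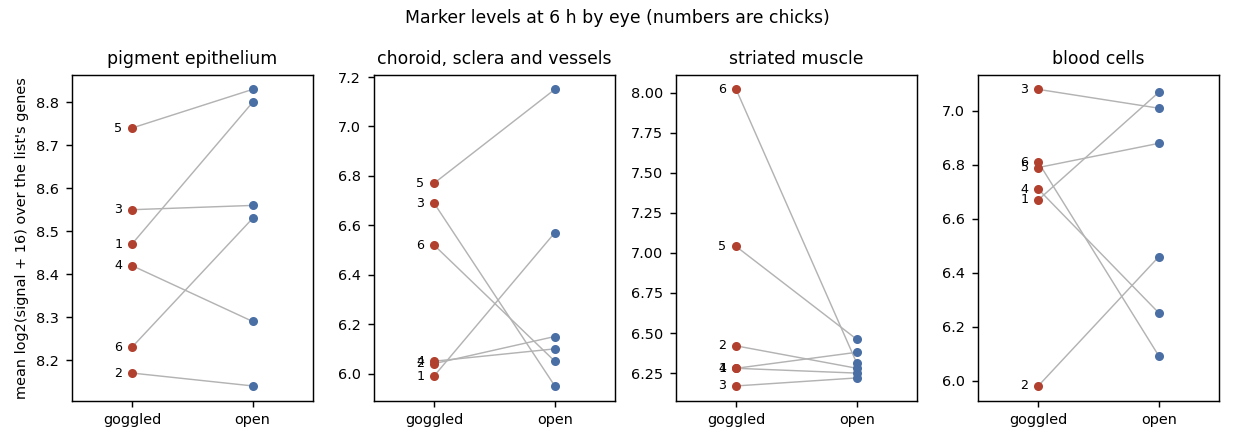
Mean log2(signal + 16) of marker genes of 4 tissues in goggled (left) and open eyes (right) at 6 h, 1 point per eye, lines joining the eyes of a chick and numbers naming the chick. Muscle markers are high in goggled eyes 5 and 6 only (7.04 and 8.02), and choroid and blood lines cross.

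The chicks goggled for 3 d are separate animals with controls of their own, and are set beside the early values. The p at 6 h that chose the 24 genes took its variance from the pairs at both times. A small spread at 3 d thus favoured the choice of a gene, so the 3 d counts of these genes are not independent of it. The direction of the 3 d difference did not enter the choice. At 3 d, 2 probe sets passed an adjusted p of 0.05 (0.00744%), those of VIP and UTS2B, and 8.90% had an unadjusted p under 0.05. Of the 24 genes chosen at 6 h, 20 differed in the same direction at 3 d, against 58% of all probe sets. All 6 chicks at 3 d were lower for 6 of the 12 lower genes, against 5.24% of the 458 probe sets that were lower in 6 of 6 at 6 h and 3.22% of all probe sets. Those 6 were VIP, UTS2B, BDNF, MAP7D3, LONRF1 and SHC4. Of the 12 higher genes, 1 was higher in all 6 chicks at 3 d, LBH, against 7.20% of the 403 and 1.77% of all. The pair numbered 3 at 3 d is the least sure of the pairings.

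Several genes had nearly the same mean at both times. BMP2 gave -1.29 at 3 d and -1.22 at 6 h, and CCN2 -0.99 and -0.96. BDNF gave -0.38 and -0.35, SHC4 -0.37 and -0.38, LBH 0.32 and 0.32, and PPP3CA 0.39 and 0.49. VIP was further from 0 at 3 d, at -0.95 against -0.63, and so was UTS2B at -0.79 against -0.52, with unadjusted p of 0.0262 and 0.0742 for the difference between the times. GCG gave -0.42 and -0.32, TH -0.50 and -0.28, and NTS 0.44 and 0.30.

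Other genes were closer to 0 at 3 d. The test of the difference between the times called no probe set after adjustment (limma, 0% called, smallest adjusted p = 0.691), and 1132 stood at an unadjusted p under 0.05 (4.21%). Of the 24 genes, 10 were among these, which had been chosen by their values at 6 h. AFAP1L1 gave -0.04 at 3 d and -0.51 at 6 h, with an unadjusted limma p of 0.00279 for the difference. BRWD1 gave -0.03 and -0.38, and CYB561D2 0.05 and -0.34, with unadjusted p of 0.00873 and 0.00341. FAAP100 gave -0.08 and 0.47, and WWOX 0.01 and 0.45, with unadjusted p of 7.34e-04 and 0.0115. LRP3 was lower in 6 of 6 chicks at 3 d and higher in 6 of 6 at 6 h, at -0.40 and 0.48. EGR1 gave -0.22 at 3 d and -0.64 at 6 h, with an unadjusted p of 0.173, and its second probe set -0.13 and -0.77, with an unadjusted p of 0.0318. Over all probe sets, the mean differences at the 2 times had a correlation of 0.161.

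**Figure D5:**
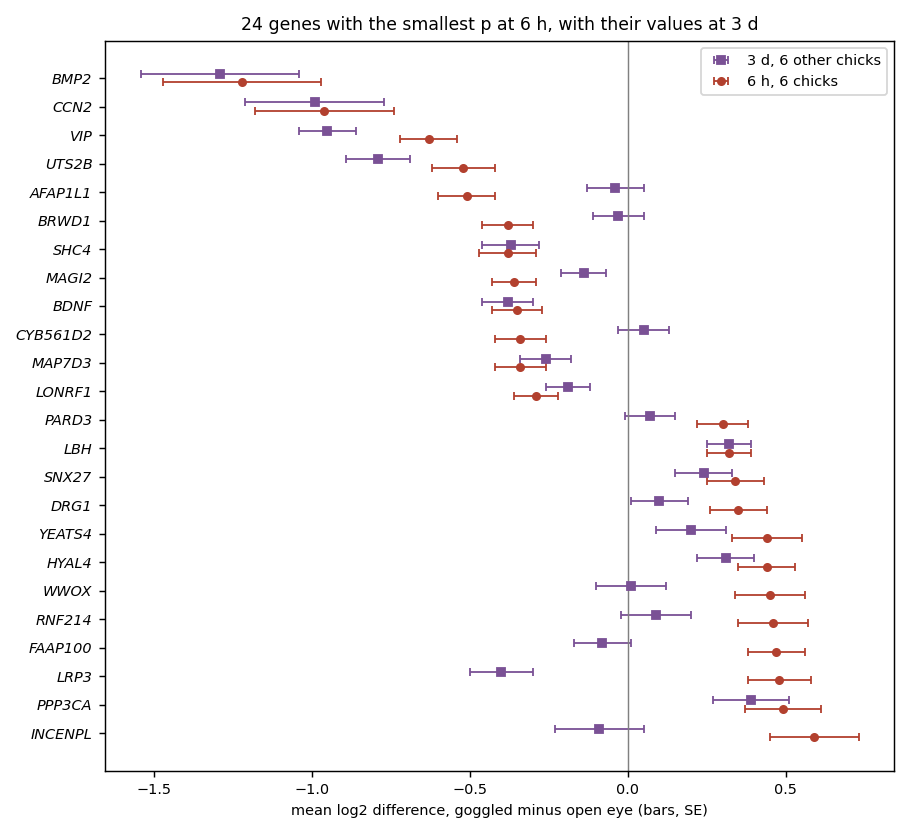
Mean log2 difference (goggled minus open eye) with its SE for the 24 genes with the smallest p at 6 h, in 6 other chicks at 3 d (squares) and at 6 h (circles). BMP2, CCN2, BDNF, SHC4 and LBH lie at nearly the same place at both times, while AFAP1L1, BRWD1, FAAP100, WWOX and INCENPL are near 0 at 3 d.

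Several genes known from work on eye growth had small mean differences at 6 h, with overlapping groups. NPY and PENK, for the peptides neuropeptide Y and enkephalin, gave 0.01 (SE 0.12) and 0.02 (SE 0.09). The dopamine receptor gene DRD4 gave 0.04 (SE 0.08) and the clock gene CRY1 0.05 (SE 0.10), while a second CRY1 probe set gave -0.15 (SE 0.08) and was lower in 5 of 6 chicks. In the retinoic acid pathway, which the choroid uses in the control of growth, RBP4 gave -0.15 (SE 0.08) and CRABP1 0.09 (SE 0.11). ALDH1A2, its synthetic enzyme, gave -0.45 (SE 0.54), set by open replicate 5 at 405.5 where all other eyes were between 34.9 and 78.6. That eye had the highest mean choroid marker level, 7.15. EDNRB, an endothelin receptor gene, gave 0.07 (SE 0.44), with single eyes of 485 among goggled and 435 among open ones. These were goggled replicate 5 and open replicate 1, at choroid marker levels of 6.77 and 6.57. Goggled replicate 3 at 6.69 and open replicate 5 at 7.15 had EDNRB signals of 38.4 and 52.6. The part of the choroid in these values was not tested. Other than for RBP4 and the second CRY1 probe set, each mean difference given here was smaller than its SE, which does not show that the eyes were alike.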

How the data were processed

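Biotin-labelled cRNA was made from 3 µg of an eye's total RNA, per the labels, for 1 Affymetrix Chicken Genome array. The deposited values are linear intensities, 1 for every probe set and array, and their 2% trimmed mean is 150.03 in all 24 arrays. The submitters' processing notes name GCOS and RMA, and the labels GCOS 1.4, without saying which made the table. Precision is limited by the number of arrays.

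Of 38535 probe sets, 96 Affymetrix controls and 57 reporters were removed, and those with a mean signal below the 30th percentile (14.45) were left out, which left 26869. Of these, 20682 had 1 gene in the platform annotation, 119 several and 6068 none, and genes were named only from the first kind. Symbols were updated through the RefSeq table of assembly GRCg7b. For gene lists, the brightest probe set stood for a gene, which gave 11130 genes.

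After log2(signal + 16), limma 3.58.1 was run over all 24 arrays (lmFit and eBayes, two-sided, R 4.3.3), the chick as a fixed block and 10 residual degrees of freedom. Equal replicate numbers were taken as the eyes of 1 chick. The labels state that each of 6 chicks gave both eyes and do not state which arrays pair. As a check, same-numbered arrays' deviations from the group means correlated by 0.222 to 0.425 (6 h) and by 0.101 to 0.444 (3 d), every pair above 0.1, while other numbers averaged -0.07 and -0.05. The open eye correlated best with the goggled eye of its own number for 6 of 6 at 6 h and for 5 of 6 at 3 d.

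Genes were named by rule: the 12 smallest p in each direction among those above the reporters' 95th percentile and on the same side in 6 of 6 chicks, up to 4 members of each of 30 pathway and 14 marker lists by p, list members differing by 0.58 or more, and genes known from myopia work. CNP3 met the limit of 0.58 but was not followed under other settings. Members, lists and genes were chosen with earlier results of these data known. The code was tested on simulated data.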

Additional observations from a re-analysis of the deposited data

Results flagged for a closer look

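Some values stood far from the other 5 eyes of their group, by a gap to the nearest that exceeds Dixon's 95% limit as a share of the group's range, which chance alone gives in about 1 in 20 groups. Here 22 of 272 groups had such a value. Among goggled eyes these were low values of BRWD1 (69.6, replicate 2), JUN (350.8, replicate 6), NR4A3 (9.6, replicate 6) and SMAD3 (139.2, replicate 3), and high values of EDNRB (485.2, replicate 5), ID3 (71.3, replicate 5) and SQLE (818.6, replicate 4). Among open eyes they were low values of FOS (11.3, replicate 4), ETV4 (17.3, replicate 3), SMAD3 (80.2, replicate 3) and HSPA9 (1251.4, replicate 3), and high values of BRWD1 (127.4, replicate 4), ALDH1A2 (405.5, replicate 5), EDNRB (434.9, replicate 1), EDN1 (32.4, replicate 5), FDFT1 (649.5, replicate 2) and TNNC2 (15.4, replicate 2).

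Of the mean log2 levels of gene lists, goggled replicate 5 was high for BMP genes (7.68) and cartilage of the sclera (7.31), goggled replicate 4 low for neurotrophins (6.05), goggled replicate 2 low for blood cells (5.98) and open replicate 5 low for heat shock genes (8.98). LRP3 was singled out because its goggled eyes were lower in all chicks at 3 d and higher in all at 6 h, a difference between the times of -0.88 (unadjusted p = 2.57e-05, adjusted p = 0.691 by limma).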

How the results depend on the processing

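The count of probe sets past an adjusted p of 0.05 at 6 h was 0 in the reported analysis and 1, VIP, with an offset of 64 (difference -0.56, adjusted p = 0.0209) and with trended robust variances (-0.63, adjusted p = 0.00958). It was 0 under the other settings: no low-signal filter, a filter at the 50th percentile, an offset of 1, quantile normalization, median centring, 1 probe set per gene, the 12 arrays at 6 h alone, an adjusted p under 0.10, and leaving out any of the 6 chicks (0 to 0, smallest adjusted p 0.234 to 0.784). Added after seeing the data were leaving out chicks 5 and 6 together (0, smallest adjusted p 0.883) and the 3 d pair numbered 3 (0, 0.187). The difference between the times gave 0 under every setting run. Without the replicate block the count was 0, with 360 lower and 278 higher at an unadjusted p under 0.05 against 663 and 570 with the pairing. With 1 probe set per gene these were 287 and 275, with median centring 429 and 823, and 476 to 1020 and 454 to 716 when a chick was left out.

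Of 1629 values of 92 genes under alternatives, 1613 kept their direction and did not pass, and 14 of 8 genes reversed. When each replicate was left out in turn, NR4A3 spanned -0.079 to 0.15, NPY -0.085 to 0.088, DRD4 -0.013 to 0.060, PENK -0.040 to 0.065, CRY1 -0.040 to 0.086 and EDNRB -0.48 to 0.57. Without chicks 5 and 6, NPY gave -0.15, ALDH1A2 0.03, EDNRB -0.56 and TNNT3 -0.0079. The causes were not tested. Of 748 list medians, 3 moved by more than 1 SD between chicks: ERK feedback genes, 0.10 without replicate 6 and 0.09 without chicks 5 and 6, and acetylcholine genes, 0.0024 without both. Signals near the reporters' 95th percentile, under which 14.2% of tested probe sets had their mean, limit what can be read from low genes.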
